A study of Mus musculus with 55 samples.

Results

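The regions described here are the broad H3K27ac domains of wild type (WT) mouse liver. They were chosen by a rule on the H3K27ac peak lists, as peaks of the WT list at least 2000 bp long that share at least 1 bp with a peak of the Setd8-LKO list. The rule kept 834 of 27983 WT peaks (2.98%). The WT list held 845 peaks of that length, and 11 of them were left out because no Setd8-LKO peak overlapped them. The domains covered 2.24 Mb, which is 11.7% of the 19.1 Mb in all WT H3K27ac peaks. Length and overlap are what the rule used, so these values and the H3K27ac signal of either list inside the domains are given as a description, without a test.

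Acetylation of lysine 27 on histone H3 marks active promoters and enhancers, and it is read by bromodomain proteins that favor transcription. Wide stretches of the mark lie over genes that a cell type transcribes strongly and over clusters of enhancers, often beside genes of transcription factors that define the cell. In hepatocytes, such factors include the C/EBP, FOXA, HNF1, HNF4 and nuclear receptor families, which together maintain the program of plasma protein synthesis and intermediary metabolism.

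The chromatin lists compared untreated WT livers with livers of Setd8-LKO mice taken 24 h after 3 mg/kg TCPOBOP, in male mice 45 to 50 days old. Setd8-LKO mice carry floxed Setd8 alleles and Cre driven by the albumin promoter, so that the deletion is directed to hepatocytes, whereas the tissue analyzed was whole liver or its nuclei. TCPOBOP is an agonist of the nuclear receptor CAR and drives hepatocytes into division. There were 3 WT and 3 Setd8-LKO libraries for H3K27ac, 3 and 5 for ATAC-seq, 4 and 2 for CTCF, 3 and 2 for the cohesin subunit Smc3, 4 and 4 for Lamin A/C, and 2 and 2 for H4K20me3. The 4 WT Lamin A/C titles name WT1 and WT2 once each and again with an added library code, so they may stand for 2 livers. RNA-seq covered untreated WT (n = 5), WT + TCPOBOP (n = 5) and Setd8-LKO + TCPOBOP (n = 4). Genotype and treatment change together in every chromatin comparison and cannot be told apart there. The labels call the controls untreated, whereas the study's methods name a corn oil vehicle and its reporting summary a DMSO mock treatment. Each mark had 1 peak list per condition, so the lists carry no spread between livers, and the 95% exact (Clopper-Pearson) intervals given with shares cover counting error only. The transcript of Setd8, annotated as Kmt5a, had 613, 567, 761, 563 and 715 normalized counts in untreated WT and 1341, 1465, 1338 and 1313 in the libraries labelled Setd8-LKO. It was thus higher in every library labelled Setd8-LKO (log2 fold change 1.08, standard error 0.14, Benjamini-Hochberg adjusted p = 0.000151, edgeR quasi-likelihood test), and gene-level counts cannot show the loss of 1 exon. The start of Kmt5a was not in a domain.

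The sequence of the domains is shown first at sites that carry the CTCF consensus, because the share of domains with a peak differed most between the conditions for CTCF. The sites come from WT CTCF peaks that lie in domains and hold the consensus. Sites largely in annotated untranslated regions, and those on a chromosome not used for printing, were left out first. Printed are 3 of the 4 remaining sites with the highest Setd8-LKO CTCF fold enrichment. Each line gives 60 bases from the RefSeq assembly GRCm38.p6 with the match to the consensus in capitals. The Kctd15 site lies in an exon of Kctd15 at chr7:34655737-34655796 (minus strand), and its CTCF fold enrichment was 18.3 in WT and 92.1 in Setd8-LKO. The site near Chd2 is intergenic, at chr7:73618491-73618550 (minus strand), with 9 and 87.9. The Cebpb site, at chr2:167688645-167688704 (plus strand), lies in an intron of the overlapping gene Tmem189 and had 11.7 and 79.5. The 3 sites were chosen by their Setd8-LKO value, and no peak of the WT CTCF list exceeded 31.3. Their higher value in the Setd8-LKO list thus follows from the choice and is no result.
Kctd15: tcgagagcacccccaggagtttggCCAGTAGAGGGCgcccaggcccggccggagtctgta
near Chd2: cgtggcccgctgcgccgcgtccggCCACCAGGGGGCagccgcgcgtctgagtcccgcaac
Cebpb: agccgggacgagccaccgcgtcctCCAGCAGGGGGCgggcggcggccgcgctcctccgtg

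The next 3 sequences are accessible windows of domains near genes that hepatocytes are known for. They come from domains that cover no protein-coding start, and only windows that hold a searched motif were considered. They are thus examples and do not stand for such domains as a class. Each is 300 bases centered on a WT accessible region, with the letters of a searched motif in capitals. The window near Alb, the albumin gene, is intergenic at chr5:90447726-90448025 and holds the AP-1 letters from base 139. The window in an intron of Cps1, the entry enzyme of the urea cycle, is at chr1:67125449-67125748 and holds the AP-1 letters from base 147. Its domain lies only 80 bp from the nearest protein-coding start. The window near Cebpb, a gene of the C/EBP family, is intergenic at chr2:167765115-167765414 and holds the FOXA letters from base 147. All 3 are printed on the plus strand of GRCm38.p6, and a match of letters is a description of the sequence, not a bound site.
near Alb: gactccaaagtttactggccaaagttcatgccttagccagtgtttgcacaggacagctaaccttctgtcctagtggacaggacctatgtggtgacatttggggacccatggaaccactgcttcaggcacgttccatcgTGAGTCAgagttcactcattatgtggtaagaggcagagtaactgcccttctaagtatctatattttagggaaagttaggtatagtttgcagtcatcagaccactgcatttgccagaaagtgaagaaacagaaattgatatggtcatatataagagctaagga
near Cps1: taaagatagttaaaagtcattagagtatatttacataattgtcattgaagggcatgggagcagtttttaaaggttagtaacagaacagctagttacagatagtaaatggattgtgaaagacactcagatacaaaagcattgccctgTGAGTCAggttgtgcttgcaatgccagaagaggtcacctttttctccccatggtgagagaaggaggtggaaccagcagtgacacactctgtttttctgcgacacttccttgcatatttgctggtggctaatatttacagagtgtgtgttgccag
near Cebpb: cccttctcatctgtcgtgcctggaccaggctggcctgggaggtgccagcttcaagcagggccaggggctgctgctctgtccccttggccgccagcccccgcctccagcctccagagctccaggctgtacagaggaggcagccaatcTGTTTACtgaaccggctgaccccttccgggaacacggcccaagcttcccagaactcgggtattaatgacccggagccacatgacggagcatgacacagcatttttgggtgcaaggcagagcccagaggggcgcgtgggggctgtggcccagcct

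A pair of promoters completes the set, the 250 bases before the RefSeq transcript start of Cebpa at chr7:35119043-35119292 and of Egfr at chr11:16751953-16752202, both on the plus strand, with every CG pair in capitals. Both genes lie under domains among the 10 longest. Cebpa has 22 CG pairs in this window and Egfr has 11.
Cebpa: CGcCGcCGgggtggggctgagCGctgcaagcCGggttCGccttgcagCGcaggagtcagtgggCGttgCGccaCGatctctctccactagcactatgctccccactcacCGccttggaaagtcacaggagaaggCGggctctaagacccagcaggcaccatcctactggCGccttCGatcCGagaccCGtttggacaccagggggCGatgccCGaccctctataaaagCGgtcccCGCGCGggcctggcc
Egfr: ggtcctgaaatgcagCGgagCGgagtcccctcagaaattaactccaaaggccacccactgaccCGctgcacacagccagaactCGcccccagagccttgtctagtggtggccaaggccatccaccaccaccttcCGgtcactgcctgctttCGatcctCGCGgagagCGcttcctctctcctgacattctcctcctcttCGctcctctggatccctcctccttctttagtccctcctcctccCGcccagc

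Most domains lay on promoters. A domain is called a promoter domain here if it covers the start of at least 1 protein-coding transcript in GENCODE M21, and a distal domain otherwise. There were 634 promoter domains (76.0%, interval 73.0 to 78.9) and 200 distal domains. Among the 20908 shorter WT peaks that also overlapped a Setd8-LKO peak (other kept peaks), 43.6% (interval 42.9 to 44.3) covered such a start. The promoter domains covered the starts of 687 protein-coding genes, with 575 domains holding 1 gene and 59 holding 2. Of the distal domains, 67 overlapped an exon, 59 lay in an intron and 74 were intergenic. Their nearest protein-coding start was a median of 6980 bp away, with 114 of them within 10 kb and 30 beyond 50 kb. In 59 of them it was within 1000 bp, so the distal class includes regions beside a promoter. In 49 distal domains there was a start of another kind of transcript.

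The domains were 2002 to 8425 bp long, with a median of 2420 bp, against a median of 513 bp over the whole WT list. Their length fell off quickly, with 462 of them under 2500 bp, 193 from 2500 to 3000 bp, 121 from 3000 to 4000 bp and 58 of at least 4000 bp. The domains just inside the length limit were over the start of Tox (2002 bp) and near Prdx6 (2003 bp), and the peaks just outside it were over Marveld1 (1999 bp) and L3mbtl3 (1997 bp). The domains were rarely isolated, and 650 of them had another WT H3K27ac peak within 10000 bp. The median distance to the next WT peak was 359 bp, and it was 1336 bp for the other kept peaks. Within 10000 bp of another domain lay 98 of them, in groups of 2 to 4. The groups of 4 lay near Mtss1 and over and near St3gal4, and groups of 3 lay near Igf1, near Tubd1, at Slc25a13 and at Ttc39c.

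Of the 10 longest domains, 7 held a protein-coding start and 3 were intergenic. The longest lay over Hs6st1, a heparan sulfate sulfotransferase gene (8425 bp, chr1:36066690-36075114), followed by Setd1b, an H3K4 methyltransferase gene (8054 bp), and Cebpa, a factor that hepatocytes need for their mature state (6602 bp, chr7:35116794-35123395). Midn (6559 bp), Fam169b (6343 bp), Rxra, the partner of CAR and of other nuclear receptors (6270 bp), and Egfr, the receptor of epidermal growth factor (5491 bp, chr11:16750887-16756377), also held a start. The 3 intergenic ones lay 220 bp from the start of Tnrc18 (6186 bp), 50856 bp from Spag9 (5706 bp) and 36665 bp from Cd69 (5495 bp). Setd8-LKO peaks covered at least 93% of 8 of these 10 domains. The exceptions were Cebpa, with 77.2% covered by 3 Setd8-LKO peaks, and Egfr, with 41.7% covered by 2.

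The H3K27ac signal of the domains was alike in the 2 lists at promoters and lower in the Setd8-LKO list at distal domains. The signal is the fold enrichment over the local background at the summit, and for the Setd8-LKO list it is the highest value among the peaks that overlap a domain. Its median over the domains was 43.5 in WT (range 6.39 to 74.9) and 45.0 in Setd8-LKO (range 5.43 to 58.2). At promoter domains, the medians were 47.1 and 48.6, and at distal domains they were 19.9 and 15.5. The ratio of Setd8-LKO to WT had a median of 0.925 over all domains, 0.944 over promoter domains and 0.822 over distal domains, and 675 domains were within 1.5 times in either direction. The other kept peaks, which were chosen for being shorter in WT, had medians of 1.03 at promoters and 1.04 at distal sites. They are thus no unselected baseline, because domains and other kept peaks were chosen by WT length in opposite directions. How far this choice bears on their ratios was not tested. The scale of the lists differed at the top, with a highest value of 74.9 in the WT list and 58.4 in the Setd8-LKO list, and medians of 11.5 and 11.5 over all their peaks. A domain with a WT value above 58.4 could therefore only have a ratio under 1, and how far the difference between the scales bears on the other ratios was not tested.

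**Figure D1:**
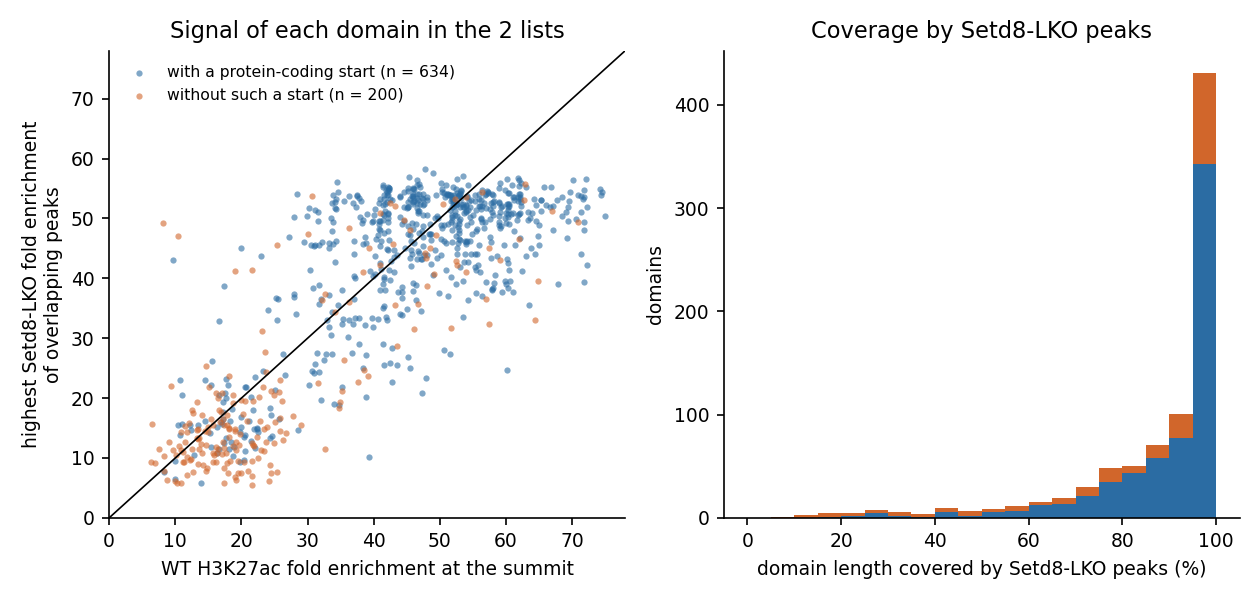
Left, the highest Setd8-LKO H3K27ac fold enrichment of each domain against its WT fold enrichment, with 634 domains over a protein-coding start in blue and 200 others in orange and a line of equality. Right, a stacked count of domains by the percentage of their length under Setd8-LKO peaks, with the same colors. Most distal domains lie at WT values under 30, no Setd8-LKO value exceeds 58.2, and most domains are covered over 95% or more of their length.

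Setd8-LKO peaks covered a median of 95.3% of the length of a domain and 87.8% of all domain bases. Full coverage was seen in 187 domains, coverage of at least 50% in 785 and lower coverage in 49, of which 30 were distal and 19 were promoter domains. The lowest coverage was 8.44%. A single Setd8-LKO peak lay in 668 domains, whereas 137 domains were split over 2 Setd8-LKO peaks, 24 over 3 and 5 over 4. A Setd8-LKO peak that was itself at least 2000 bp long overlapped 580 domains. The share with more than 1 Setd8-LKO peak was 15.4% for domains under 2500 bp and 36.2% for domains of at least 4000 bp. Under the mirrored rule, which starts from the Setd8-LKO list, 925 of 936 Setd8-LKO peaks of at least 2000 bp overlapped a WT peak and 579 overlapped a domain. Those 925 had a median of 93.5% of their length under WT peaks, and 353 of them spanned more than 1 WT peak. Splitting into several peaks was thus seen from either list.

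The lowest ratios were at distal domains and at 1 promoter. The ratio was 0.252 at a domain 8954 bp from the start of Arid5b, 0.258 at the promoter of Cped1, 0.258 at a domain 7415 bp from the start of Egfr, 0.302 near Gm47985 and 0.305 near Sult2a7. The WT fold enrichments of these domains were 21.6, 39.2, 24.1, 25.3 and 24.5. Of the 29 domains with a ratio of 0.5 or lower, 22 were distal and 7 were promoter domains. The highest ratios, 6.01 near Prdx6, 4.52 near Gpr146 and 4.47 at Apoe, the apolipoprotein E gene, belong to Setd8-LKO peaks whose summit lies outside the domain. The next were 2.40 near Plec and 2.34 near Tomm20, where the summit lies inside. The summit of the highest Setd8-LKO peak was inside the domain in 819 cases, of which 4 had a ratio of at least 2 and 29 had a ratio of 0.5 or lower.

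The 11 broad WT peaks that overlapped no Setd8-LKO peak are not members, and they are given because the rule excluded them. A peak of 3066 bp covered the start of Slco1a1, an organic anion transporter gene, and a peak of 2669 bp covered the start of Adipor2, an adiponectin receptor gene. Others were 117 bp from the start of Sult2a8, 13482 bp from Hsd3b5, 39009 bp from Nudt7, 11224 and 28868 bp from Cmah, and near Nhsl1, Pdia5 and 1110059E24Rik. Their WT fold enrichments were 9.14 to 21.4, below the median of the domains.

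Genes of hepatocyte transcription factors were the most frequent under the domains among the lists examined, ahead of genes of plasma proteins and metabolic enzymes. Of 22 hepatocyte transcription factor genes on a list drawn up for this work, 16 (72.7%) had a start in a domain, against 685 of 21842 protein-coding gene symbols overall (3.14%). They included Cebpa, Cebpb, Foxa2, Foxa3, Nr1h4, which encodes the bile acid receptor FXR, Nr5a2, Onecut1, Ppara, Prox1 and Rxra. Hnf4a and Foxa1 had no start in a domain but were the nearest gene of a distal one, 6425 and 5757 bp away, as was Nr1i2, which encodes PXR, at 10933 bp. Of 23 plasma protein genes, 5 had a start in a domain (Apoe, Rbp4, Serpinc1, Tat and Trf, of which Tat encodes an intracellular aminotransferase and is also on the enzyme list), and Ahsg, Alb and Apoa1 were nearest to a distal domain. Of 22 metabolic enzyme genes, 4 had a start in a domain, among them Ass1, Fasn and Tat, and 6 others were nearest to a distal domain (Arg1, Cps1, Cyp8b1, Fbp1, Pck1 and Tdo2). Of 12 CAR response genes, 3 had a start in a domain (Alas1, Por and Sult2a8), and of 20 immediate-early and stress genes, 6 did (Egr1, Fosl2, Junb, Jund, Klf10 and Myc). Among 8 hepatocyte markers, 1 had a start in a domain and 5 were nearest to a distal domain. Of the 8 markers each of Kupffer cells, endothelial cells, stellate cells and leukocytes, none had a start in a domain. The broad domains thus held starts of hepatocyte regulators, as the labelled tissue has, and of no marker of Kupffer cells, endothelial cells, stellate cells or leukocytes.

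Accessible regions lay in fewer domains in the Setd8-LKO list than in the WT list, whereas CTCF and Smc3 peaks lay in many more. CTCF binds a long DNA motif and anchors chromatin loops, and Smc3 is a core subunit of cohesin, the ring that extrudes them. A WT accessible region lay in 620 domains (74.3%, interval 71.2 to 77.3) and a Setd8-LKO accessible region in 491 (58.9%, interval 55.4 to 62.2). Both lists had one in 470 domains, WT alone in 150 and Setd8-LKO alone in 21. A CTCF peak lay in 81 domains in WT (9.71%, interval 7.79 to 11.9) and in 547 in Setd8-LKO (65.6%, interval 62.2 to 68.8). An Smc3 peak lay in 413 domains in WT (49.5%, interval 46.1 to 53.0) and in 669 in Setd8-LKO (80.2%, interval 77.4 to 82.9). These shares move with the sizes of the lists, which were 27307 and 23386 accessible regions, 5838 and 20905 CTCF peaks, and 13045 and 21615 Smc3 peaks in WT and Setd8-LKO. Of all CTCF peaks of a list, 1.44% lay in a domain in WT and 4.07% in Setd8-LKO. For Smc3 peaks the shares were 4.41% and 3.55%, and for accessible regions they were 2.73% and 2.36%. Smc3 peaks were also longer in Setd8-LKO, with a median of 667 bp against 301 bp in WT, as were CTCF peaks (316 and 215 bp). With no values per liver, the difference between conditions was not tested.

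CTCF and Smc3 peaks were gained in the Setd8-LKO list chiefly at promoter domains. A Setd8-LKO Smc3 peak lay in 93.1% of promoter domains and 39.5% of distal domains, and a Setd8-LKO CTCF peak in 78.1% and 26.0%. The WT Smc3 shares were 56.3% and 28.0%, and the WT CTCF shares were 10.4% and 7.5%. In 545 of the 547 domains with a Setd8-LKO CTCF peak, such a peak overlapped a Setd8-LKO Smc3 peak. The fold enrichment of the strongest Smc3 peak in a domain had a median of 11.6 in WT (413 domains) and 82.8 in Setd8-LKO (669 domains), and that of CTCF had a median of 12.1 (81 domains) and 16.3 (547 domains). Over the whole lists, the median was 13 in WT and 29.5 in Setd8-LKO for Smc3, with highest values of 47.1 and 170.9. For CTCF, the medians were 12.5 and 13, and the highest values were 31.3 and 151.9. The scale thus differed over all peaks too for Smc3, and in the upper values for CTCF. None of the 6 lists had a peak in 48 domains, of which 41 were distal.

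**Figure D2:**
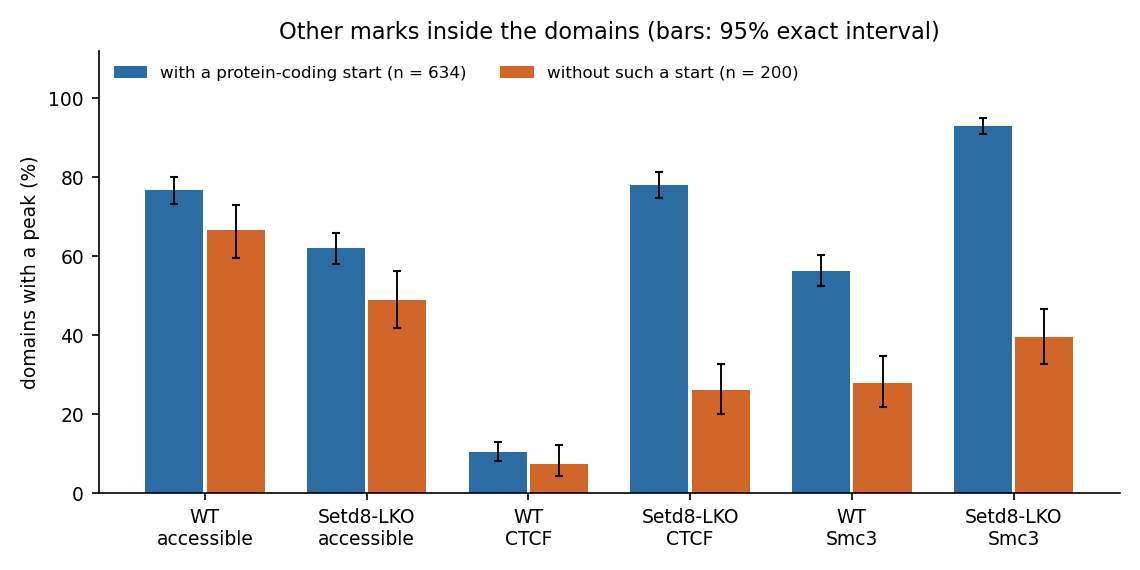
Percentage of promoter domains (blue, n = 634) and distal domains (orange, n = 200) with at least 1 peak of each list, with 95% exact intervals as black bars. Setd8-LKO Smc3 and CTCF reach 93.1% and 78.1% of promoter domains, against 39.5% and 26.0% of distal domains, while WT CTCF is at 10.4% and 7.5%.

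A longer region can hold more peaks, so the marks were also counted within 500 bp to either side of the WT H3K27ac summit and set beside other kept peaks of the same class. At promoters, WT Smc3 was more frequent in domains (47.6%, interval 43.7 to 51.6) than in other kept peaks (22.8%, interval 22.0 to 23.7). WT accessibility in this window was less frequent in domains (54.1%, interval 50.1 to 58.0) than in other kept peaks (67.1%, interval 66.1 to 68.1). Over their whole length, however, 76.8% of promoter domains held a WT accessible region. Their median length was 2432 bp, against 812 bp for other kept promoter peaks, so the window left out more of a domain. Within the window, the Setd8-LKO Smc3 shares were 92.6% in domains and 93.0% in other kept peaks, with intervals that overlap. The Setd8-LKO CTCF shares were 74.5% (interval 70.9 to 77.8) and 64.1% (interval 63.1 to 65.1). At distal sites, WT Smc3 was at 22.5% of domains (interval 16.9 to 28.9) and 11.5% of other kept peaks (interval 10.9 to 12.1). At promoters, Smc3 was thus more common at broad than at short peaks in WT and alike in both in Setd8-LKO. The rise in the share was larger at the short peaks. With both Setd8-LKO shares close to the maximum, this follows from their lower share in WT. Domains of at least 4000 bp held a WT Smc3 peak in 69.0% of cases and those under 2500 bp in 43.7%, over regions of different length.

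The repressive compartments were almost absent from the domains. Lamin A/C islands, which mark chromatin at the nuclear lamina, overlapped 1 domain in WT (0.120%, interval 0.00304 to 0.666) and 0 of 834 in Setd8-LKO, where the upper limit of the interval was 0.441%. H4K20me3 islands, the end product of the methylation that Setd8 starts, overlapped 1 domain in WT and 10 in Setd8-LKO (1.20%, interval 0.576 to 2.19). Within 500 bp of the summit, the shares of other kept peaks were 2.07% for WT Lamin A/C and 1.93% for Setd8-LKO H4K20me3, and those of domains were 0.120% and 1.08%.

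The DNA under promoter domains was rich in GC and in CpG, and that under distal domains was not. Within 500 bp of the summit, the median GC content was 66.2% at promoter domains and 50.7% at distal domains, and the observed over expected CpG ratio was 0.802 and 0.285. Other kept promoter peaks had 61.8% and 0.763, and other kept distal peaks had 50.0% and 0.276. The printed Cebpa and Egfr promoters belong to the first class. In the 593 RefSeq promoter windows (250 bases before to 50 after the start, 485 genes) that overlapped domains, the median GC content was 68%, against 57% over all 20122 windows.

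Searched motifs of liver factors lay in small shares of the windows, and for FOXA and AP-1 the shares in domains and in other kept peaks were both below that of all windows. The letters searched on both strands were CAAAGTCCA for HNF4A, TGTTTAC for FOXA, GTTAATNAT for HNF1, TTGCGCAA for C/EBP, TGANTCA for AP-1, TTTCCCGC for E2F and TGACGTCA for CRE, none of which contains another. FOXA letters, as in the printed window near Cebpb, lay in 5.29% of the 300-base accessible windows of promoter domains (n = 586) and in 4.40% of those of distal domains (n = 159), against 4.38% of windows in other kept peaks (n = 10167) and 7.49% of all 27298 windows. AP-1 letters, as in the printed windows near Alb and Cps1, lay in 4.95% and 5.66%, against 6.56% in other kept peaks and 9.65% of all windows. HNF1 letters lay in 4.40% of the distal domain windows (interval 1.79 to 8.86), 1.02% of the promoter domain windows, 1.39% of those in other kept peaks and 2.31% of all. HNF4A letters lay in 0.853% and 1.26%, against 1.52% in other kept peaks and 2.35% of all. C/EBP letters lay in 0.683% and 0%, against 0.315% and 0.286%, and E2F letters in 1.37% and 0.629%, against 1.73% and 0.916%, in the same order. CRE letters, which cAMP-responsive factors recognize, lay in 0.853% and 1.26% of the accessible windows, against 2.13% in other kept peaks and 1.07% of all. Over RefSeq promoter windows, they lay in 0.506% of those in domains (interval 0.104 to 1.47, n = 593), in 3.72% of those in other kept peaks (interval 3.31 to 4.16, n = 7932) and in 2.32% of all. For HNF4A, HNF1, E2F, C/EBP and CRE, the counts in the accessible windows of either class of domain were at most 8. The CRE share of the promoter windows in domains rests on 3 windows.

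The CTCF consensus was found at a minority of CTCF peaks, and rarely at those in domains. The 12-base consensus was searched with no mismatch within 100 bp of a summit, and it was chosen after the data had been seen. It lay at 11 of 84 WT CTCF peaks in domains (13.1%, interval 6.72 to 22.2), against 26.1% of all WT CTCF peaks. In the Setd8-LKO list it lay at 17 of 851 peaks in domains (1.998%, interval 1.17 to 3.18), against 6.68% of all. Of the Setd8-LKO peaks in domains, the 77 that overlapped a WT CTCF peak held it in 11.7% of cases, and the 774 that did not held it in 1.03% (interval 0.447 to 2.03). The median fold enrichment was 74.5 for the former and 12.8 for the latter. The Setd8-LKO CTCF peaks at sites of the WT list, as at Kctd15, Chd2 and Cebpb, thus had the higher median, and most peaks of both classes lacked the consensus. Strong peaks were not limited to WT sites. The domain of Irs1 reached a Setd8-LKO CTCF fold enrichment of 70.3 and that of Arid2 reached 99.1, both without a WT CTCF peak, and both were picked after their values were seen.

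RNA of the genes that start in a domain was read from the authors' tables, which list only genes they had selected by FDR and by size of change. A gene is called here where edgeR's quasi-likelihood test gave an adjusted p under 0.05 (Benjamini-Hochberg over 18512 genes) and the log2 fold change was 1 or more in either direction. In bulk RNA, fewer cells of a type and less RNA per cell cannot be told apart. Of the 687 domain genes, 131 were listed for Setd8-LKO + TCPOBOP against untreated WT, all passed the filter on low counts, and 126 were called, 17 higher and 109 lower. Among all genes of the table, 92.7% of 3726 tested genes were called, 55.2% higher and 37.5% lower, because the table holds selected genes. The share of listed domain genes called was 96.2%, close to that background, and their directions were 12.98% higher and 83.2% lower. Their median log2 fold change was -1.46, and that of all tested genes was 1.16. Of the 126 called genes, 123 had groups that did not overlap (97.6%), close to the 93.2% of all called genes. The sign was the same within both sequencing runs for all 126. Counted over all protein-coding genes, 15.9% of domain genes were called lower (interval 13.2 to 18.8), against 5.39% of genes that start in other kept peaks (interval 4.94 to 5.86) and 4.65% of all. Called higher were 2.47% (interval 1.45 to 3.93), 8.49% (interval 7.93 to 9.07) and 7.596%. Of 125 genes that were nearest to a distal domain and had no start in a domain, 36 were called lower and 2 higher.

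The direction moved with the list in which the region was broad. Genes that start in Setd8-LKO peaks of at least 2000 bp that overlap a WT peak, the mirrored choice, made after the data had been seen, had 49 higher and 68 lower calls among 733. Where the start was in a domain and also in such a broad Setd8-LKO peak, 17 of 503 genes were called higher and 53 lower (10.5%, interval 7.99 to 13.6). Where it was in a domain only, 0 of 184 were called higher, with an upper limit of 1.99%, and 56 were called lower (30.4%, interval 23.9 to 37.6). Where it was in a broad Setd8-LKO peak only, 32 of 230 were called higher (13.9%, interval 9.71 to 19.1) and 15 lower (6.52%, interval 3.70 to 10.5). The members were chosen for breadth in WT, the baseline of the RNA comparison, so the balance of 17 to 109 describes this choice of members and is no test of it.

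**Figure D3:**
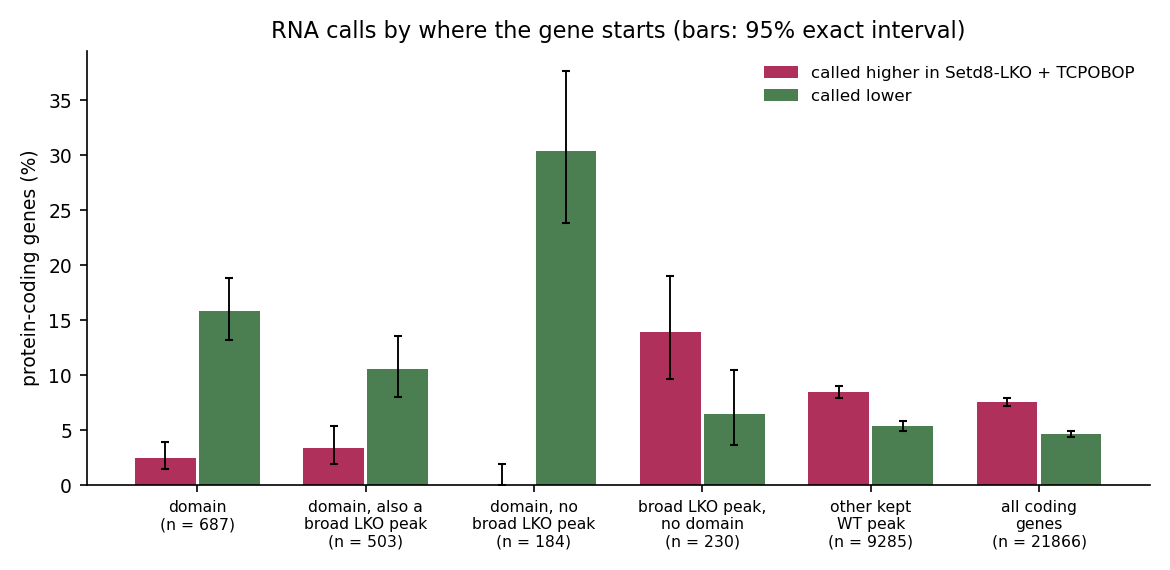
Percentage of protein-coding genes called higher (red) or lower (green) in Setd8-LKO + TCPOBOP against untreated WT, by where their transcripts start, with 95% exact intervals as black bars. Genes under domains that are not broad in Setd8-LKO have 56 lower and 0 higher calls of 184, whereas genes under regions broad in Setd8-LKO but not in WT have 32 higher and 15 lower calls of 230.

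RNA of cell type markers differed in the same contrast. Of 8 hepatocyte markers 6 were listed and called lower, with sums over the listed markers of 910972 to 1628614 normalized counts in untreated WT and 420757 to 585845 in Setd8-LKO + TCPOBOP. Of 8 cholangiocyte markers 6 were listed and 5 called higher (sums 424 to 697 and 1634 to 7506), and of 8 stellate cell and fibroblast markers 4 were listed and called higher (sums 2071 to 3108 and 5103 to 11702). Of 8 Kupffer cell markers, Marco alone was listed and was called higher, of 8 leukocyte markers 2 were listed and 1 was called higher, and none of 8 endothelial markers was listed. No listed marker was at 0 in all libraries. The part of cell composition in the RNA of the domain genes was not tested.

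Some domain genes on the lists of liver genes were called in this comparison. Of the 16 hepatocyte factors with a start in a domain, 3 were listed and called lower, a share near the 15.9% of all domain genes called lower. The other 13 were not listed. Cebpa, the gene printed above, had 9070, 12061, 6507, 7458 and 6747 normalized counts in untreated WT and 1438, 1257, 1711 and 2680 in Setd8-LKO + TCPOBOP, and the groups did not overlap (log2 fold change -2.24, standard error 0.28, adjusted p = 0.000136). Onecut1 was lower by a log2 fold change of -2.61 and Ppara, the fatty acid receptor gene, by -1.53. Of the metabolic enzyme genes in domains, Ass1 of the urea cycle (-1.54) and Fasn, the fatty acid synthase gene (-2.30), were lower. Of the plasma protein genes in domains, Trf, the transferrin gene, was lower (-1.20). Of the 3 CAR response genes in domains, Por and Alas1 were higher and Sult2a8 was lower. Of the 6 immediate-early genes in domains, Fosl2, Jund (1.04) and Myc were higher and the others were not listed.

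The 5 domain genes with the largest rise encode a growth factor, transcription factors, a small GTPase and a partner of cytochrome P450. Myc (ENSMUSG00000022346), which drives cell growth, had 52, 41, 297, 50 and 44 normalized counts in untreated WT and 497, 455, 635 and 691 in Setd8-LKO + TCPOBOP. All treated libraries were above all controls, and the control at 297 stood apart from the other 4 (log2 fold change 2.55, standard error 0.58, adjusted p = 0.00742, and 3.59 without that control). Pdgfa (ENSMUSG00000025856), a chain of platelet-derived growth factor, had 146, 125, 125, 133 and 163 in untreated WT and 663, 693, 676 and 671 in Setd8-LKO + TCPOBOP. Its groups lay far apart (log2 fold change 2.28, standard error 0.14, adjusted p = 2.01e-06). Fosl2 (ENSMUSG00000029135), a subunit of AP-1, had 155, 115, 157, 222 and 122 and then 732, 755, 914 and 575, again without overlap (log2 fold change 2.27, standard error 0.22, adjusted p = 2.57e-05). Por (ENSMUSG00000005514), the reductase that feeds electrons to cytochrome P450 enzymes, had 5406, 4448, 6942, 6830 and 6358 and then 22615, 22887, 31614 and 31018. Its groups did not overlap either (log2 fold change 2.17, standard error 0.20, adjusted p = 2.03e-05). Rhob (ENSMUSG00000054364), a small GTPase gene, rose from 436 ± 38.2 (SD, n = 5) to 2132 ± 232 normalized counts (SD, n = 4), a log2 fold change of 2.29.

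The 5 with the largest fall included metabolic genes and a growth factor receptor. Sult2a8 (ENSMUSG00000030378), a liver sulfotransferase gene, had 15207, 15748, 9474, 10059 and 11843 normalized counts in untreated WT and 34, 34, 265 and 109 in Setd8-LKO + TCPOBOP. The groups were separated by more than an order of magnitude (log2 fold change -6.82, standard error 0.71, adjusted p = 4.17e-05). Nudt7 (ENSMUSG00000031767), a gene of peroxisomal coenzyme A turnover, had 19453, 20546, 16929, 17027 and 10760 and then 578, 482, 597 and 636, without overlap (log2 fold change -4.89, standard error 0.25, adjusted p = 8.14e-07). Egfr (ENSMUSG00000020122) had 24441, 19116, 16644, 24273 and 12036 and then 1589, 900, 2580 and 1136. Its groups did not overlap (log2 fold change -3.64, standard error 0.37, adjusted p = 3.35e-05). Hes6, a gene of the Hes repressor family, fell from 1815 ± 448 (SD, n = 5) to 138 ± 11.1 (SD, n = 4), and Ttc39c from 12447 ± 1771 to 1040 ± 199, log2 fold changes of -3.71 and -3.58.

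**Figure D4:**
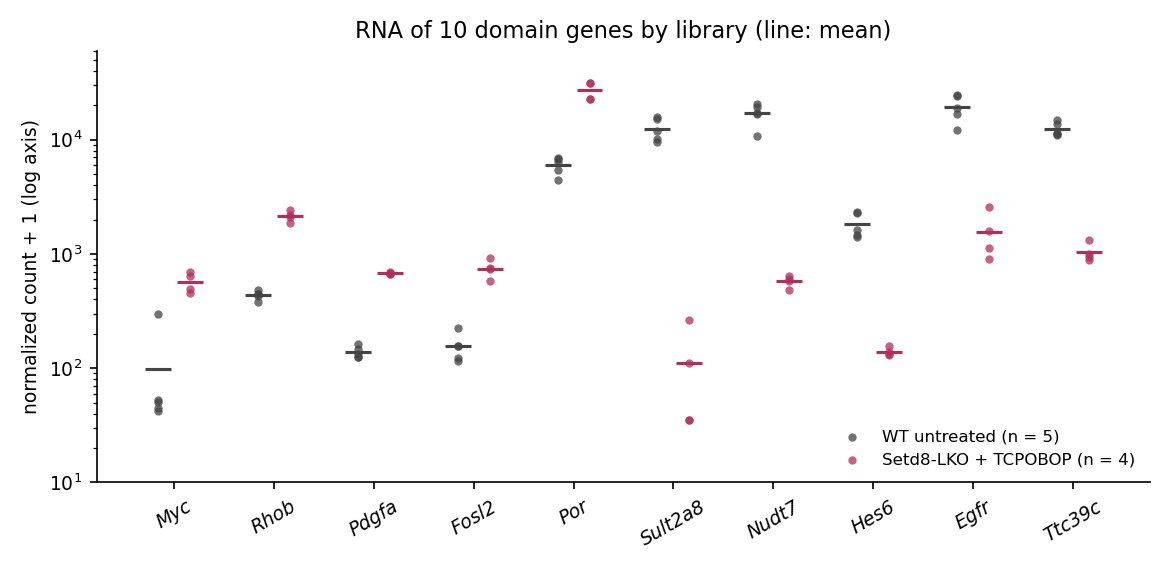
Normalized counts plus 1, on a log axis, of the 10 domain genes with the largest rise or fall, for each untreated WT library (gray, n = 5) and each Setd8-LKO + TCPOBOP library (red, n = 4), with lines at the mean. The 2 groups do not overlap for any of the 10 genes, and 1 untreated WT library stands at 297 for Myc.

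The H3K27ac of domains whose gene was lower had a lower median coverage by Setd8-LKO peaks. In the 109 domains with a gene called lower, Setd8-LKO peaks covered a median of 84.0% of the length (quartiles 71.6 and 94.1), and 31.2% held more than 1 Setd8-LKO peak. In the 503 domains with no listed gene, the median was 97.0% (quartiles 88.3 and 100), and 12.7% held more than 1. In the 17 domains with a gene called higher, it was 100% (quartiles 97.8 and 100). The height of the signal moved less, with a median ratio of Setd8-LKO to WT of 0.899, 0.954 and 0.944 in the same order. Sult2a8 and Nudt7 had among the least covered domains, 24.9% and 18.7%, with fold enrichments of 10.0 in WT and 6.41 in Setd8-LKO for Sult2a8 and of 11.1 and 15.6 for Nudt7. The domain of Egfr was covered over 41.7% while its summit kept a fold enrichment of 52.9, against 58.1 in WT. A peak near Sult2a8 and another near Nudt7 are also among the 11 broad WT peaks with no Setd8-LKO peak, and a distal domain near Egfr was among those with the lowest ratio. Coverage and the choice of members rest on the same lists, so this relation is a description.

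**Figure D5:**
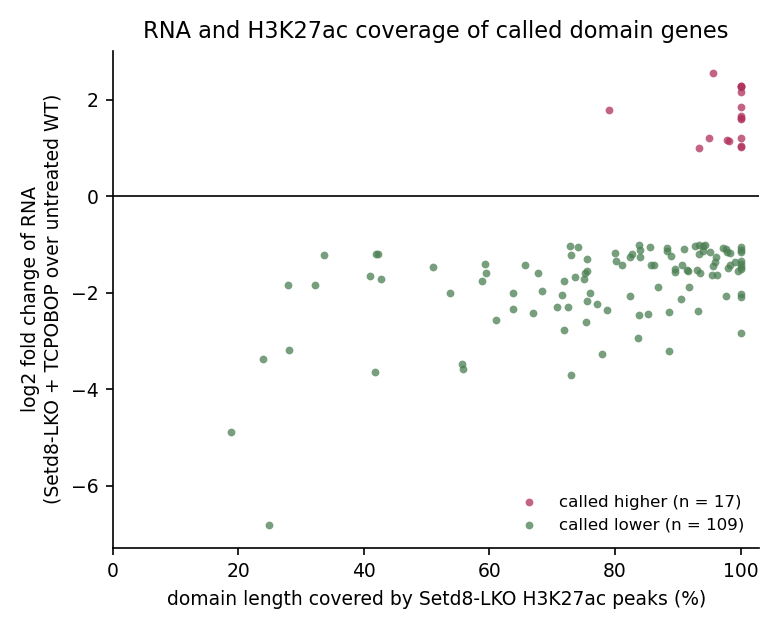
Log2 fold change of RNA in Setd8-LKO + TCPOBOP over untreated WT against the percentage of the domain under Setd8-LKO H3K27ac peaks, for the 17 domain genes called higher (red) and the 109 called lower (green). Genes called higher sit at 79.0% coverage or more, and the strongest falls, such as Sult2a8 and Nudt7, lie at 24.9% and 18.7%.

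Fewer domain genes were called after TCPOBOP in WT. For WT + TCPOBOP against untreated WT, 35 domain genes were listed, and 26 were called by the same test, 10 higher and 16 lower, where in all 78.8% of 679 tested genes were called, 58.2% higher and 20.6% lower. The called share of listed domain genes was 74.3%. Under the mirrored choice, there were 26 higher and 7 lower. With scaling factors computed over the listed genes, the balance shifted to 2 higher and 19 lower with DESeq2 size factors and to 2 and 20 with TMM. The median log2 fold change was -1.07 for the domain genes and 1.34 for all tested genes. Of the 26 called genes, 25 had groups that did not overlap (96.2%), close to the 96.6% of all called genes. All 26 had the same sign within both runs. Both comparisons share the untreated WT libraries, so their values are set side by side and their overlap is not counted as evidence.

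The domain genes with the largest rise in WT + TCPOBOP were Fosl2, Por, Slc16a12, Alas1 and Hrg. Fosl2 had 155, 115, 157, 222 and 122 normalized counts in untreated WT and 1599, 1466, 1390, 1233 and 1396 in WT + TCPOBOP, without overlap (log2 fold change 3.20, standard error 0.21, adjusted p = 6.64e-06). Por had log2 fold changes of 2.51 in WT + TCPOBOP and 2.17 in Setd8-LKO + TCPOBOP. Alas1, the gene of the entry enzyme of heme synthesis, had 1.88 and 1.14, and Slc16a12, a creatine transporter gene, had 1.95 and 1.67. Hrg, which encodes a plasma glycoprotein, was 1.20 higher in WT + TCPOBOP and was not listed in the other table. With scaling over the listed genes, Slc16a12, Alas1 and Hrg were no longer called, and the smallest of their log2 fold changes were 0.69, 0.62 and -0.06.

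The largest falls in WT + TCPOBOP were in Lpin1, Nudt7, Dnase2b, Uox and Ass1. Nudt7 had 2481, 2608, 2441, 4927 and 5027 normalized counts in WT + TCPOBOP, all below the 10760 to 20546 of untreated WT (log2 fold change -2.28, standard error 0.28, adjusted p = 0.000723), and -4.89 in Setd8-LKO + TCPOBOP. Uox, the urate oxidase gene, had -1.73 and -3.27, Dnase2b, whose domain lies beside that of Uox, had -1.76 and -3.20, and Ass1 had -1.68 and -1.54. Lpin1, a phosphatidate phosphatase gene, had -2.32 and -2.56, and it ranged from 1392 to 5664 in untreated WT. Sult2a8 was lower in both comparisons, by -1.63 and -6.82, whereas Egfr, Cebpa and Pdgfa were listed in the Setd8-LKO table alone. Myc had 406, 386, 454, 277 and 391 in WT + TCPOBOP and was not called (log2 fold change 1.98, adjusted p = 0.129), and the control at 297 lay within the range of the treated libraries.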

How the data were processed

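The authors trimmed ChIP-seq, ATAC-seq and CUT&Tag reads with Trimmomatic 0.39, aligned them to mm10 with HISAT2, filtered them for duplicates, mapping quality and blacklisted regions, and ran MACS2 2.2.7.1 for peaks or SICER for islands. ChIP-seq and CUT&Tag reads were reduced to the smallest sample before calling, which is not stated for ATAC-seq. The fold enrichment (a ratio), the -log10 p of each peak and the score of each island are the authors' deposited values, from 1 list per condition. How livers were combined for a list is not given in the sources used here. Broad regions can be split or joined by the peak caller's depth and cutoff, so length depends on them.

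The deposited RNA tables hold raw counts and normalized counts made by the authors with metaseqR, in which a normalized count is the raw count times 1 factor per library, for 3900 and 719 genes they selected. The sum over listed genes (5734065 to 12780869 raw counts per library in the first table and 1389901 to 3706582 in the second) is not the depth. The tables also hold the authors' fold changes, p-values and 114 transformed columns of the same libraries. Only the ratio of the authors' FDR to p was read, to find that they adjusted over 18512 genes. The libraries belong to 2 sequencing runs, of which run A held 3 untreated WT, 3 WT + TCPOBOP and 1 Setd8-LKO library and run B the others.

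Overlaps of 1 bp or more were found in Python 3.11.15 (pandas 2.3.3, numpy 2.4.6), and exact intervals were made with scipy 1.17.1. The quasi-likelihood functions of edgeR 4.0.16 (R 4.3.3) tested the raw counts after filterByExpr, scaled by the authors' factors. DESeq2 1.42.0 served an alternative. Sequence was read with pysam 0.24.0 and samtools 1.23.1 from GRCm38.p6, the assembly of mm10, and positions are counted from 1. The scripts were tested on simulated data. The study calls its RNA-seq libraries biological replicates.

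The members, gene lists and tests were chosen with earlier results of these data known. Named are the 10 longest domains, the 5 highest and 5 lowest ratios, the 2 regions to either side of the length limit, the members of the lists, and for each RNA comparison the 5 largest rises and falls among called genes whose groups did not overlap. Replicate numbers did not pair the libraries (correlations of the deviations of same-numbered libraries were -0.152 to 0.062 and -0.416 to 0.236). Some members of the lists are not reported here by name.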

Additional observations from a re-analysis of the deposited data

Results flagged for a closer look

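In 54 groups of 4 or 5 libraries examined for the genes named in the text, 2 held a library far from the others, where chance marks about 1 group in 20. Replicate 3 of untreated WT had 297 normalized counts of Myc and the other 4 had 41 to 52, so that its gap took 0.957 of the range of the group. Replicate 4 of Setd8-LKO + TCPOBOP, the library of that group in run A, had 1063 normalized counts of Ppara and the other 3 had 601 to 651, a gap of 0.892 of the range. Ppara was called lower with this library in the test, and its log2 fold change was -0.76 within run A and -2.02 within run B.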

How the results depend on the processing

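Both RNA counts kept their side and direction in most alternatives. For Setd8-LKO + TCPOBOP, leaving out 1 library at a time gave 113 to 127 called domain genes, and the other scalings, tools, filters and the sequencing run as a factor gave 117 to 128, of which 117 (6 higher, 111 lower) with DESeq2 size factors over the listed genes. For WT + TCPOBOP, leaving out 1 library gave 21 to 27, and DESeq2 with the authors' factors gave 35. Factors computed over the listed genes rest on genes that were selected as changed. With the replicate block, the calls were 116 for Setd8-LKO + TCPOBOP and 16 (9 higher, 7 lower) for WT + TCPOBOP, where Lpin1 was lost (adjusted p = 0.076). The numbers did not pair the libraries.

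The length limit set the number of domains, with 2061 at 1500 bp and 179 at 3000 bp, and at 3000 bp the called genes were 31 and 6. At 3000 bp, the shares were 79.9% for WT accessible regions, 59.2% for WT Smc3, 84.9% for Setd8-LKO Smc3, and 0% for WT Lamin A/C and WT H4K20me3. Requiring 50% of the smaller region inside gave 64.4% and 50% for WT and Setd8-LKO accessible regions. With a stricter -log10 p limit of 20 on the other marks, the values were 65.8% and 48.4% for accessible regions, 62.2% for Setd8-LKO CTCF and 44% for WT Smc3. A start within 1000 bp was found for 83.1% of domains. The mirrored rule, chosen after seeing the data, gave a median coverage of 93.5%, with 49 higher and 68 lower genes for Setd8-LKO + TCPOBOP and 26 and 7 for WT + TCPOBOP. Peak lists without values per liver limit every comparison of marks between conditions.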
